A study of Mus musculus with 16 samples.

Results

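The transcripts described here encode 10 enzymes that handle superoxide, peroxide and glutathione: Sod1, Sod2, Sod3, Cat, Gpx1, Gpx3, Nqo1, Gclc, Gclm and Txnrd1. They were taken by symbol from the 25719 mouse genes listed in the count files, and all 10 were among the 14803 genes that passed the filter on low counts. RNA sequencing was done on tail tendon fascicles, the collagen-rich strands of the mouse tail, from 8 knockout (KO) and 8 wild type (WT) libraries. The libraries are labelled KO or WT, and the study's design names the knockout as ScxCre;Vhlf/f: Cre recombinase, driven by the control region of the tendon gene Scx, deletes floxed Vhl in cells of the Scx lineage. The protein made from Vhl recognises HIF1α for ubiquitination and so leads to its degradation. The labels give no age, no sex and no further allele for either group, and they describe the material as all cells of the tissue. Nothing in them says whether each library came from a separate mouse, so p-values measure the spread between these libraries.

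Superoxide dismutases turn superoxide into hydrogen peroxide: SOD1 in the cytosol, SOD2 in mitochondria and SOD3 outside the cell. Catalase (Cat) and the glutathione peroxidases then break down peroxide, GPX1 inside cells and GPX3 as a secreted protein. Glutathione is made from glutamate, cysteine and glycine, and its first and rate-limiting step is carried out by glutamate-cysteine ligase, which has a catalytic subunit (Gclc) and a modifier subunit (Gclm). Txnrd1 encodes the cytosolic thioredoxin reductase and Nqo1 a quinone reductase. The transcription factor NRF2 (Nfe2l2) is held at low level by KEAP1 and, when released, binds antioxidant response elements together with small MAF proteins. Gclc, Gclm, Nqo1 and Txnrd1 are among its textbook targets.

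The promoters of 4 of these genes are printed. Those of Sod1, Gclm and Txnrd1 hold the antioxidant response element core described next, and Cat rose without any match. Gpx3 also rose without a match and is not printed, nor are windows that hold a hypoxia response element core only. RefSeq sequences on GRCm38.p6 were matched for 8 of the 10 genes, in 10 windows of 250 bases before the start site, since Txnrd1 has 3 start sites. Sod3 and Gclc had no entry. The Sod1 window is chr16:90220512-90220761 (plus strand), the Cat window chr2:103485154-103485403 (minus strand), the Gclm window chr3:122245307-122245556 (plus strand) and the Txnrd1 window chr10:82858956-82859205 (plus strand), each written 5′ to 3′ on the gene's strand. Capitals mark matches, on either strand, to the antioxidant response element core TGACNNNGC or to the hypoxia response element cores ACGTG and GCGTG.
Sod1: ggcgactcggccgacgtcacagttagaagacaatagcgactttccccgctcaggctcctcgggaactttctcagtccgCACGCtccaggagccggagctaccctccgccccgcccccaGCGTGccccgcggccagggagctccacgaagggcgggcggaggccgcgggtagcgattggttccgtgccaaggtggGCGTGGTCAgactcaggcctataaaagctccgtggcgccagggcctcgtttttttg
Cat: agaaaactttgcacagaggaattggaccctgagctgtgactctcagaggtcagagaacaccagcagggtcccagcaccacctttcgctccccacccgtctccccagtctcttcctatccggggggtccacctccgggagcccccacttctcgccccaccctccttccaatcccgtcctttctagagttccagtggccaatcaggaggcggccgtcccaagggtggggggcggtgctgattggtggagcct
Gclm: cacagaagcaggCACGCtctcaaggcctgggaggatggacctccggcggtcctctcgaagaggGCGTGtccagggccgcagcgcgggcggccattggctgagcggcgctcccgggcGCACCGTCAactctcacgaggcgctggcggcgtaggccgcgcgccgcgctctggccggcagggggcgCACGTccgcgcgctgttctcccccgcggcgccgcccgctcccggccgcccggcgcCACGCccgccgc
Txnrd1: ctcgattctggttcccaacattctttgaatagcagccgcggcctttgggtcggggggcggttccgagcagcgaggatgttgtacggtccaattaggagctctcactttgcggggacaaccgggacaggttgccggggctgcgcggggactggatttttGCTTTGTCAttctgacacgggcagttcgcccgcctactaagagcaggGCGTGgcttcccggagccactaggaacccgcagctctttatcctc
The antioxidant core was found once each in the windows of Sod1, Gclm and Txnrd1, that is in 3 of 10 windows, against 10.2% of all 32851 windows of this length. In Sod1 the match begins 56 bases before the start site and overlaps a GCGTG match at the same position. The match begins 134 bases before the start site in Gclm and 92 bases before it in Txnrd1, and all 3 lie on the strand opposite to the gene. A hypoxia core was found in 7 of 10 windows, against 38.6% of all windows. All 3 windows of Txnrd1 are among the 7, so these are not 7 separate genes. The Cat window holds none of the 3 motifs, and neither do the windows of Gpx3 and Nqo1. Only these 250 bases were searched, so a window without a match does not show that the gene lacks such an element. These are matches of letters, and binding was not measured.

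Total counts per library ran from 10488355 to 18753254 (KO) and from 10792900 to 16379401 (WT). Vhl, the targeted gene, was measured at 7.51 to 10.9 CPM (KO) and 14.1 to 25.8 CPM (WT), so each library followed its label. CPM is the usual unit for counts divided by library size, and here library sizes were scaled by the trimmed mean of M-values (TMM). All 11 tendon markers, Col1a1 and Scx among them, had counts in both groups. Their summed level was 83860 to 185494 CPM (KO) and 139302 to 389332 CPM (WT), and 8 of the 11 were lower. Markers of other cells were present too, and some moved with genotype. For 7 erythroid markers the summed CPM were 77.8 to 563 (KO) and 15.1 to 50.8 (WT), with no overlap, 5 of 5 tested were higher, and Slc4a1 was at or under 3 counts in every WT library. For 10 endothelial markers they were 38.2 to 499 and 30.6 to 50.2, 5 of 7 tested were higher, and Tie1 and Cldn5 were at that floor in the WT. For 14 skeletal muscle markers they were 375 to 22704 (median 2370) and 96.7 to 10082 (median 493). Of these, 1 of 14 was higher, although the median log2 fold change of the 14 was 1.59, and none was at 0 throughout a group. For 8 adipocyte markers they were 1.45 to 69.6 and 0.676 to 2.59, 2 of 2 tested were higher, and Adipoq, Plin1, Cidec and Retn were at the floor in the WT. For 6 mural markers they were 324 to 1405 and 353 to 473, with 3 higher and 1 lower, and for 10 macrophage markers 1337 to 1978 and 1221 to 1777, with 3 higher. For 8 keratinocyte markers they were 8.33 to 12.9 and 8.09 to 15.3, with Krt1 and Krt15 at 0 in every WT library, and of 3 tested 1 was higher and 2 lower. For 6 Schwann cell markers they were 283 to 530 and 409 to 473, and 1 of 5 tested was higher. In such bulk samples fewer cells of a type and less RNA per cell cannot be told apart, and the part of these cells in the results below was not tested except where a muscle term is given.

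Of the 10 enzymes, 4 were higher in the knockout (Gclc, Gpx3, Cat and Txnrd1), 2 were lower (Sod1 and Gpx1) and 4 did not pass the test (Sod2, Sod3, Nqo1 and Gclm). The test was the quasi-likelihood test of edgeR over all genes, and the threshold an adjusted p (Benjamini-Hochberg) of 0.05. Across all tested genes 48.3% passed it, 25.6% as higher and 22.7% as lower, so 6 of 10 is near the share of genes at large. The median log2 fold change of the 10 was 0.17, where that of all tested genes was 0.02, and the median size of the change was 0.28 against 0.25. In 2 of the 10, Gclc and Cat, every knockout library lay above every wild type library, which was the case for 10.8% of all tested genes. The groups were apart in either direction in 19.4% of all tested genes, and the KO lay wholly below the WT in 8.61%, which held for none of the 10. When libraries were scaled by their totals only, the median over all genes became 0.32, and all 8 enzymes that then passed were higher. On that scale 85.4% of all calls were higher, against 53.0% with TMM.

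**Figure D1:**
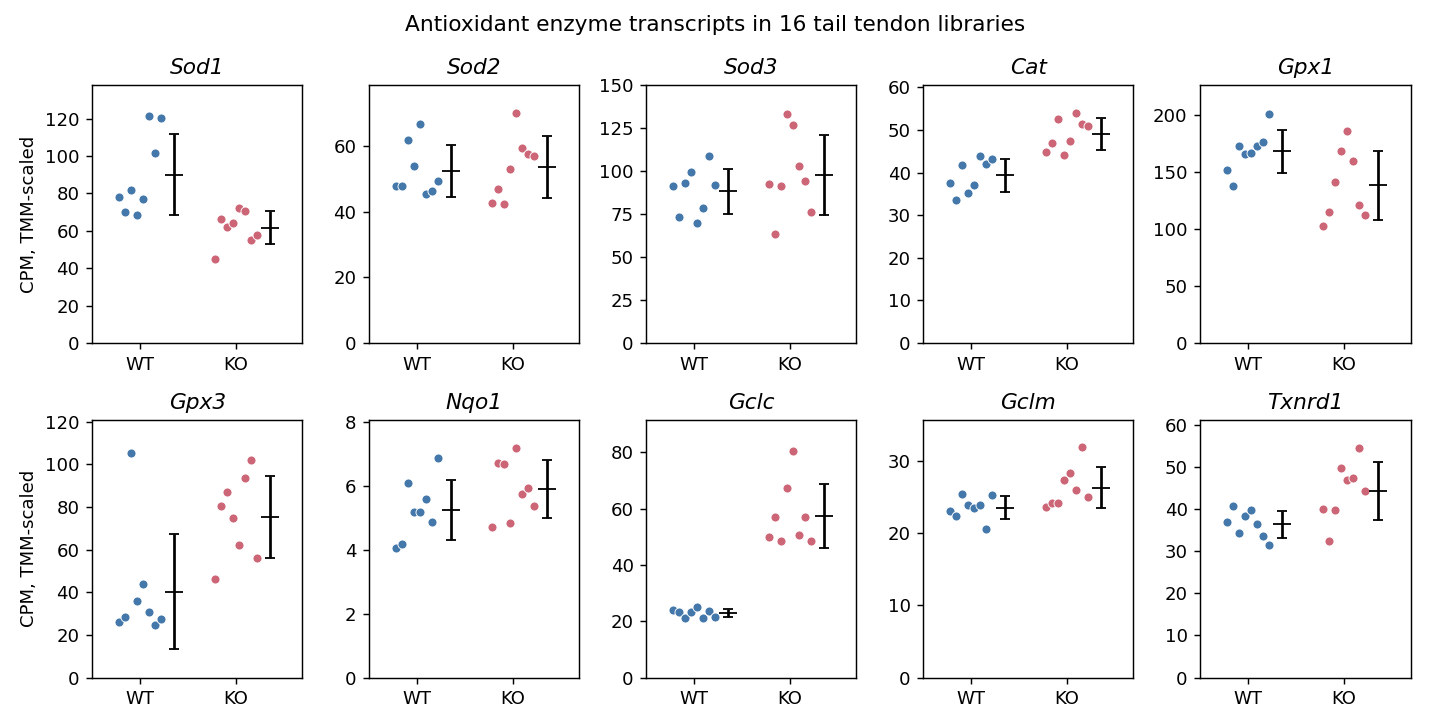
CPM on the TMM scale (vertical axes, from 0) of each of the 10 enzymes in 8 wild type (WT, blue) and 8 knockout (KO, red) libraries, 1 point a library in the order of the replicate numbers, with the mean and SD in black. Gclc lies between 21.1 and 25.0 CPM (WT) and between 48.4 and 80.2 CPM in the knockout, whereas 1 wild type library reaches 105 CPM of Gpx3.

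Glutamate-cysteine ligase gave the largest change of the 10, and in its catalytic subunit. Gclc (ENSMUSG00000032350, chromosome 9) was measured at 48.4, 53.7 and 80.2 CPM (lowest, median and highest) in the knockout and at 21.1, 23.3 and 25.0 CPM (WT). All knockout libraries were above all wild type libraries, and the wild type varied little. The mean rose 2.51-fold, from 22.9 ± 1.46 to 57.4 ± 11.2 CPM (SD, n = 8), with a log2 fold change of 1.33 (SE 0.0975; edgeR, adjusted p = 1.15e-09). It remained past the threshold under every alternative run, with a log2 fold change between 1.24 and 1.63. Gclm (ENSMUSG00000028124, chromosome 3), the modifier subunit, was measured at 23.6, 25.4 and 31.9 CPM (KO) and at 20.5, 23.7 and 25.4 CPM (WT). Of the knockout libraries, 4 lay above the highest wild type library and the other 4 within its range. The log2 fold change of 0.17 (SE 0.0691) had an adjusted p of 0.0553 in edgeR and an interval (95%, from the SE with 14 residual degrees of freedom, before adjustment) of 0.02 to 0.31. Gclm passed the threshold when knockout library 1, 2 or 3 or wild type library 8 was left out, and its adjusted p over single left-out libraries ran from 0.0356 to 0.134. It also passed with limma-voom and quality weights (0.17, adjusted p = 0.0384) and with total counts (0.46, adjusted p = 1.40e-04), which is 0.14 relative to the median of all genes on that scale. Its exons overlap those of Gm17494 on the other strand and the pseudogene Gm6061, so its counts are less certain.

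The difference between both subunits was tested as their ratio within each library, a choice made after the values above were seen. Per kb of exons, the ratio of Gclc to Gclm was 3.65 ± 0.578 (KO) and 1.64 ± 0.195 (WT; SD, n = 8). It lay between 3.00 and 4.74 (KO) and between 1.39 and 1.94 (WT), with no overlap. The log2 ratio differed by 1.15 (two-sided exact permutation test over 12870 assignments, n = 8, p = 0.000155, the smallest it can give; 0.000466 adjusted over the 3 within-library comparisons). The ratio does not depend on how libraries are scaled to each other. Gclc alone had already separated the groups and Gclm had changed little, so the separation of the ratio was set before the test. The p-value adds no support beyond those levels, and its adjustment does not cover the choice of this pair of enzymes.

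Of the superoxide dismutases only Sod1 passed the test, as lower. Sod1 (ENSMUSG00000022982, chromosome 16), the cytosolic copper-zinc enzyme, was measured at 44.8, 63.2 and 72.0 CPM (KO) and at 68.7, 80.1 and 122 CPM (WT). Of the knockout libraries, 6 were below the lowest wild type library, while wild type libraries 6, 7 and 8 stood above 100 CPM. The other wild type libraries lay at or under 82.1 CPM. How much of the fall rests on libraries 6, 7 and 8 together was not tested. The mean went from 89.9 ± 21.6 to 61.6 ± 8.90 CPM (SD, n = 8), and Sod1 fell by 0.54 on the log2 scale (SE 0.130; edgeR, adjusted p = 0.00188). With total counts the log2 fold change was -0.24 (adjusted p = 0.117), which is -0.56 relative to the median of all genes on that scale. Sod2 (ENSMUSG00000006818, chromosome 17), the mitochondrial manganese enzyme, was measured at 42.5, 55.1 and 70.2 CPM (KO) and at 45.4, 48.7 and 66.8 CPM (WT). The ranges nearly coincided, with a log2 fold change of 0.04 (SE 0.106; edgeR, adjusted p = 0.800) and an interval of -0.19 to 0.26. Sod3 (ENSMUSG00000072941, chromosome 5), the extracellular enzyme, was measured at 63.7, 93.1 and 133 CPM (KO) and at 69.7, 91.4 and 109 CPM (WT). The knockout spread wider on both sides, and the log2 fold change was 0.15 (SE 0.133; edgeR, adjusted p = 0.380; interval -0.14 to 0.43). With total counts Sod2 (0.33) and Sod3 (0.45) passed the threshold, at 0.01 and 0.13 relative to the median of all genes.

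Within a library, Sod3 made up a larger part of the dismutase counts per kb in the knockout. Per kb of exons its share of Sod1, Sod2 and Sod3 together was 55.1% ± 5.84 (KO, 44.3% to 62.4%) and 46.0% ± 5.45 (WT, 37.4% to 53.9%; SD, n = 8). The groups overlapped, and the means differed by 9.11 percentage points (two-sided exact permutation test, n = 8, p = 0.00777, also 0.00777 adjusted over both shares tested). Sod1 held 33.4% ± 5.06 and 43.6% ± 6.18 of the same sum, and Sod2 11.5% ± 1.60 and 10.4% ± 2.43. The shares follow from the levels above, and Sod1 was the only one of the 3 that passed the test over all genes. The lengths used were of all annotated exons together: 3.97 kb for Sod1, 10.01 kb for Sod2 and 3.74 kb for Sod3. Such lengths understate genes with long alternative ends. The shares therefore compare the genotypes and do not give the true make-up of the dismutase transcripts.

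**Figure D2:**
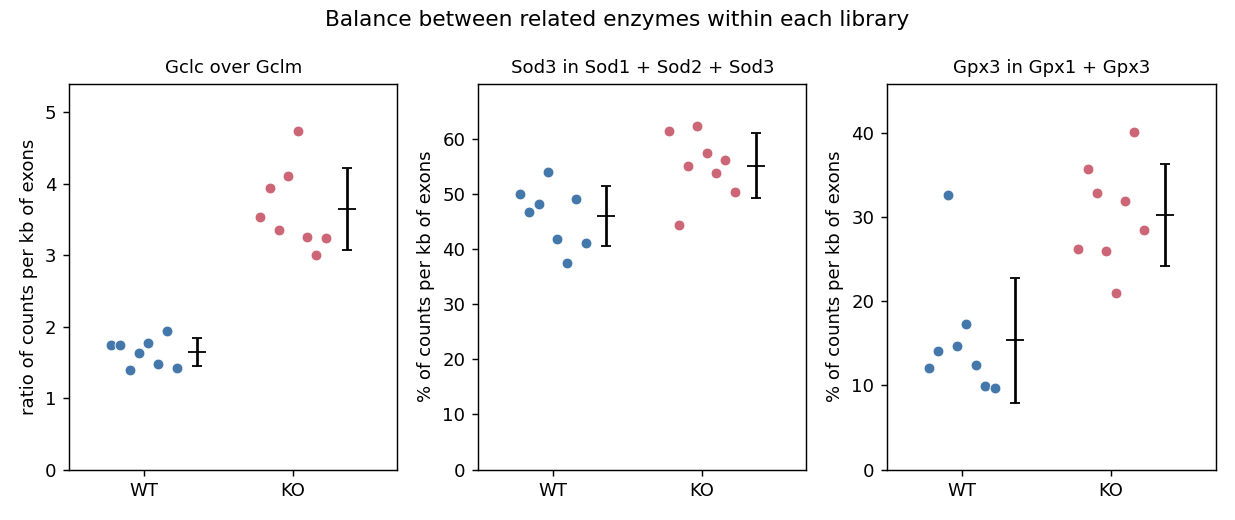
Within-library balance of related enzymes in 8 wild type (WT) and 8 knockout (KO) libraries, 1 point a library, with the mean and SD in black: the ratio of Gclc to Gclm, the share of Sod3 among 3 dismutases and the share of Gpx3 in Gpx1 and Gpx3, all from counts per kb of exons, with axes from 0. The ratio does not overlap between the groups, while a wild type library with 32.7% Gpx3 lies among the knockout libraries.

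Catalase and the peroxidases went in different directions. Cat (ENSMUSG00000027187, chromosome 2) was measured at 44.2, 49.2 and 54.0 CPM (KO) and at 33.7, 39.7 and 43.9 CPM (WT). The lowest knockout library was just above the highest wild type library. The change was small and even, from 39.3 ± 3.90 to 49.0 ± 3.73 CPM (SD, n = 8), a log2 fold change of 0.32 (SE 0.0677; edgeR, adjusted p = 6.20e-04), and Cat passed under every alternative. Red blood cells are rich in catalase, and the erythroid markers given above also did not overlap in their summed level. Their part in the Cat value was not tested.

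Gpx1 (ENSMUSG00000063856, chromosome 9), the intracellular peroxidase, was measured at 103, 131 and 186 CPM (KO) and at 138, 170 and 201 CPM (WT). Of the knockout libraries, 4 were below the lowest wild type library and the other 4 overlapped with the group. The log2 fold change of -0.28 (SE 0.114; edgeR, adjusted p = 0.0495) lay at the edge of the threshold, and it lost the call when any of 11 single libraries was left out: KO libraries 1, 2, 3, 7 and 8 and WT libraries 3 to 8, with adjusted p up to 0.0982. With a muscle score, the mean log2 CPM of the 14 muscle markers, as a term it was -0.24 (adjusted p = 0.133), and with total counts 0.02 (adjusted p = 0.906), which is -0.30 relative to the median of all genes.

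Gpx3 (ENSMUSG00000018339, chromosome 11), the secreted peroxidase, was measured at 46.2, 77.6 and 102 CPM (KO) and at 24.6, 29.6 and 105 CPM (WT). Wild type library 3, at 105 CPM, was the highest of all 16, and the other 7 wild type libraries lay at or under 44.1 CPM, below every knockout library. The means were 75.3 ± 19.3 and 40.4 ± 27.0 CPM (SD, n = 8), with a log2 fold change of 0.90 (SE 0.296; edgeR, adjusted p = 0.0207). Without wild type library 3 it was 1.27 (adjusted p = 1.00e-05). Gpx3 lost the call with the muscle term (0.72, adjusted p = 0.0577) and without the 4 libraries richest in muscle markers, knockout libraries 6, 7 and 8 and wild type library 5 (0.81, adjusted p = 0.109). Wild type library 3 held 811 CPM of muscle markers and 1.95 CPM of adipocyte markers. Both were above the wild type medians (493 and 1.19 CPM) and below the wild type maxima (10082 and 2.59 CPM). The tendon marker sum of this library, 139302 CPM, was the lowest of the wild type. The part of cell content in its Gpx3 level was not tested. The share of Gpx3 in Gpx1 and Gpx3 per kb of exons was 30.3% ± 6.08 (KO) and 15.4% ± 7.42 (WT; SD, n = 8; difference 14.9 percentage points; two-sided exact permutation test, p = 0.00171, 0.00342 adjusted over both shares). The groups overlapped, at 21.0% to 40.1% (KO) and 9.74% to 32.7% (WT). This share follows from the levels of Gpx3 and Gpx1 above, so its p-value adds no support beyond them.

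Of the remaining reductases only Txnrd1 passed the test. Txnrd1 (ENSMUSG00000020250, chromosome 10) was measured at 32.3, 45.5 and 54.5 CPM (KO) and at 31.4, 36.6 and 40.7 CPM (WT). Of the knockout libraries, 5 were above the highest wild type library, and knockout library 2 was near the bottom of the wild type range. The log2 fold change was 0.29 (SE 0.0895; edgeR, adjusted p = 0.0128). It lost the call with the muscle term (0.23, adjusted p = 0.0622) and without the 4 muscle-rich libraries (0.22, adjusted p = 0.0968). Nqo1 (ENSMUSG00000003849, chromosome 8) had the lowest counts of the 10, at 4.69, 5.82 and 7.17 CPM (KO) and 4.04, 5.17 and 6.86 CPM (WT). Both groups covered nearly the same range, and its lowest library held 36 counts. The log2 fold change was 0.17 (SE 0.126; edgeR, adjusted p = 0.288) with an interval of -0.10 to 0.44. With total counts Nqo1 passed the threshold (0.46, adjusted p = 0.00836), at 0.14 relative to the median of all genes.

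**Figure D3:**
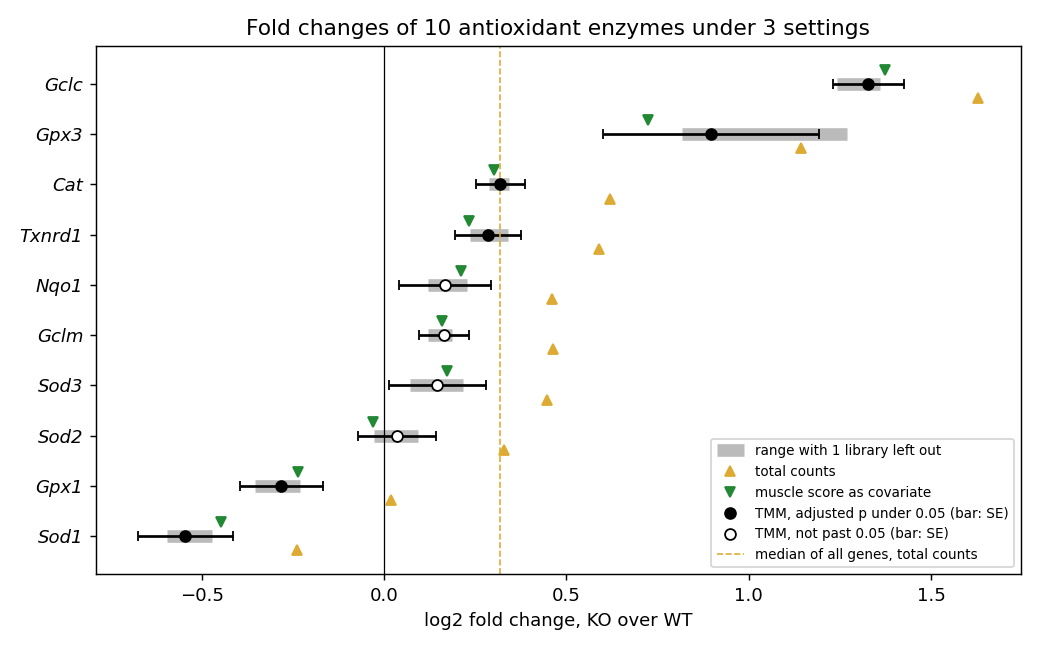
Log2 fold change of knockout over wild type (horizontal axis) for the 10 enzymes, with TMM scaling (circles with SE bars, filled where the adjusted p is under 0.05), over single left-out libraries (grey), with total counts (triangles up) and with the muscle term (triangles down); the dashed line is the median of all genes with total counts. Gclc stands farthest right at 1.33 and Sod1 farthest left at -0.54, and every enzyme lies further right with total counts, whose median of all genes is 0.32.

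Levels of different genes are compared here only per kb of exons, with the union of all annotated exons in GENCODE M21, which understates genes with long alternative ends. In the wild type Gpx1 was the most abundant, at 117 ± 12.8 CPM per kb (SD, n = 8). Sod3 (23.6 ± 3.55), Sod1 (22.7 ± 5.44) and Gpx3 (22.3 ± 14.9) followed within their spread of each other, and then Cat at 15.1 ± 1.49 CPM per kb. Gclc (6.07 ± 0.389), Sod2 (5.24 ± 0.787) and Txnrd1 (5.14 ± 0.453) formed a lower tier, and Gclm (3.73 ± 0.252) and Nqo1 (3.37 ± 0.606) the lowest. In the knockout the order at the bottom was the same for Gclm and Nqo1, at 4.18 ± 0.442 and 3.79 ± 0.587 CPM per kb. Gpx1 again led, at 96.1 ± 21.0 CPM per kb, with Gpx3 in second place at 41.5 ± 10.6 CPM per kb. Gclc, at 15.2 ± 2.98 CPM per kb, stood beside Sod1 at 15.5 ± 2.24 CPM per kb, from which it did not differ beyond the spread.

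The enzymes did not vary as 1 block among the libraries of a genotype. With the genotype means subtracted, the highest Pearson correlation of log2 CPM between 2 of them over 16 libraries was 0.70, for Sod3 and Gpx1, and the lowest was -0.45, for Cat and Gclc. The gene outside the 10 most like each was, by the same measure, Phax for Sod1 (0.95), S100a6 for Gpx1 (0.94), Swi5 for Nqo1 (0.91), Gabra3 for Gpx3 (0.91), Tubb2b for Sod2 (0.91), Dmtn for Cat (0.88), Alox5 for Sod3 (0.88), Klhdc8a for Gclc (0.86), Prkar1a for Gclm (0.86) and Gm20708 for Txnrd1 (0.84). Without the 2 libraries farthest from the genotype mean, the correlation was 0.55 for Gclc and Klhdc8a and 0.57 for Txnrd1 and Gm20708. These 2 pairs therefore rest in part on those libraries. By rank (Spearman) over all 16 libraries they stood at 0.74 and 0.65. Each Pearson value over 16 libraries is the highest over all other tested genes and is given as a description, with no test. The libraries share depth and composition as sources of common variation.

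Lists of other redox genes, 79 in all with 5 counted in 2 lists, placed the enzymes among their pathway. Of the 78 tested, 31 were higher, 15 lower and 32 did not pass (edgeR, adjusted p under 0.05), where 25.6% of all tested genes were higher and 22.7% lower. Without overlap, 15 were above and 3 below the wild type, which held for 10.8% and 8.61% of all tested genes. With total counts, 8270 of the 14803 tested genes were higher and 1415 lower, and the median log2 fold change over all of them was 0.32. The total-count values of each list below are to be read against these.

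Among 10 genes for NRF2 and its regulators, 5 were higher, none lower, and the median log2 fold change was 0.22. With total counts all 10 were higher, on a scale where 8270 of the 14803 tested genes were higher. Nfe2l2 itself was measured at 46.3 ± 4.37 CPM (KO) and 42.3 ± 3.66 CPM (WT; log2 fold change 0.13, edgeR adjusted p = 0.126), and it passed the threshold without KO library 5 (adjusted p = 0.0443). Keap1, which targets NRF2 for degradation, rose from 54.2 ± 4.75 to 75.7 ± 5.38 CPM without overlap (0.48, adjusted p = 2.41e-06), and its exons overlap an antisense gene. Of the small MAF partners, Maff rose from 20.2 ± 3.80 to 48.6 ± 5.47 CPM (1.26, adjusted p = 4.69e-09) and Mafg by 0.29 (adjusted p = 2.63e-04), both without overlap between the groups, though exons of Mafg overlap those of Sirt7. Bach1, a repressor at the same elements, was higher by 0.22 (adjusted p = 0.0265), a call that was lost when knockout library 7 or wild type library 1, 3, 4 or 5 was left out (adjusted p up to 0.0574) and without the 4 muscle-rich libraries (0.15, adjusted p = 0.228).

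Among 22 other NRF2 targets, 11 were higher and 3 lower, with a median of 0.21 (13 higher and 1 lower with total counts). Me1, the cytosolic malic enzyme that supplies NADPH, rose from 17.3 ± 3.29 to 123 ± 18.9 CPM (2.83, edgeR adjusted p = 5.63e-13). Hmox1, which encodes the haem-degrading enzyme and is known as a HIF target as well, rose from 14.9 ± 2.14 to 73.4 ± 19.6 CPM (2.30, adjusted p = 3.55e-10). Ugdh, which makes UDP-glucuronate, rose from 105 ± 16.6 to 256 ± 48.3 CPM (1.28, adjusted p = 2.43e-08), and its exons overlap those of Gm43552, as those of Me1 overlap an antisense gene. All 3 were without overlap between the groups. Gsta4, a glutathione transferase that acts on lipid aldehydes, fell from 33.2 ± 15.4 to 6.78 ± 3.00 CPM without overlap (-2.30, adjusted p = 1.00e-05). Pgd, an enzyme of the pentose phosphate pathway named after its values were seen, was also higher without overlap (0.94, edgeR adjusted p = 2.28e-10).

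In the list of 15 glutathione genes, 4 were higher and 6 lower, with a median of 0.11 (7 higher and 1 lower with total counts). Oplah, which returns oxoproline to glutamate, rose from 28.9 ± 3.19 to 62.9 ± 9.46 CPM (1.12, edgeR adjusted p = 6.15e-09), and its exons overlap genes on the other strand. Slc3a2, the heavy chain of amino acid transporters, was higher by 0.51 (adjusted p = 1.59e-05), both without overlap. Slc7a11, the light chain that imports cystine with it, was named after its values were seen: it went from 119 ± 38.5 to 59.7 ± 30.8 CPM, with overlap (-0.99, adjusted p = 0.0145). Slc7a11 lost the call with total counts (-0.68, adjusted p = 0.0504) and without the 4 muscle-rich libraries (-0.72, adjusted p = 0.0801). None of the 6 lower genes was without overlap.

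Of 12 thioredoxins and peroxiredoxins, 4 were higher and 2 lower, with a median of 0.01 (6 higher and none lower with total counts). Prdx5, a peroxiredoxin of mitochondria and peroxisomes, rose from 42.3 ± 6.81 to 101 ± 27.1 CPM (1.26, edgeR adjusted p = 8.16e-07), and its exons overlap Trmt112 on the other strand. Srxn1, which repairs overoxidised peroxiredoxins, was higher by 0.52 (adjusted p = 1.46e-05). Prdx6 was lower by TMM, from 65.6 ± 3.16 to 53.0 ± 3.88 CPM without overlap (-0.31, adjusted p = 7.91e-05), but its log2 fold change was -0.00 with total counts (adjusted p = 0.984).

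Among 10 genes for copper delivery and selenoprotein synthesis, on which Sod1, Sod3, Gpx1, Gpx3 and Txnrd1 depend for their metal or selenocysteine, 3 were higher and 3 lower, with a median of -0.00 (5 higher and 1 lower with total counts). Selenop, the secreted selenium carrier, fell from 817 ± 156 to 440 ± 58.0 CPM without overlap (-0.89, edgeR adjusted p = 2.16e-06), and its exons overlap Ccdc152 on the other strand.

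Of 14 tested oxidant sources, 6 were higher and 2 lower, with a median of 0.26 (11 higher and 1 lower with total counts). Duox2 was not tested. Nox4, an oxidase that makes hydrogen peroxide, rose from 5.21 ± 2.93 to 41.1 ± 12.0 CPM without overlap (2.97, edgeR adjusted p = 1.69e-07). Rac2, a regulator of the phagocyte oxidase, rose from 4.57 ± 1.13 to 9.43 ± 1.77 CPM (1.05, adjusted p = 1.33e-05), also without overlap.

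**Figure D4:**
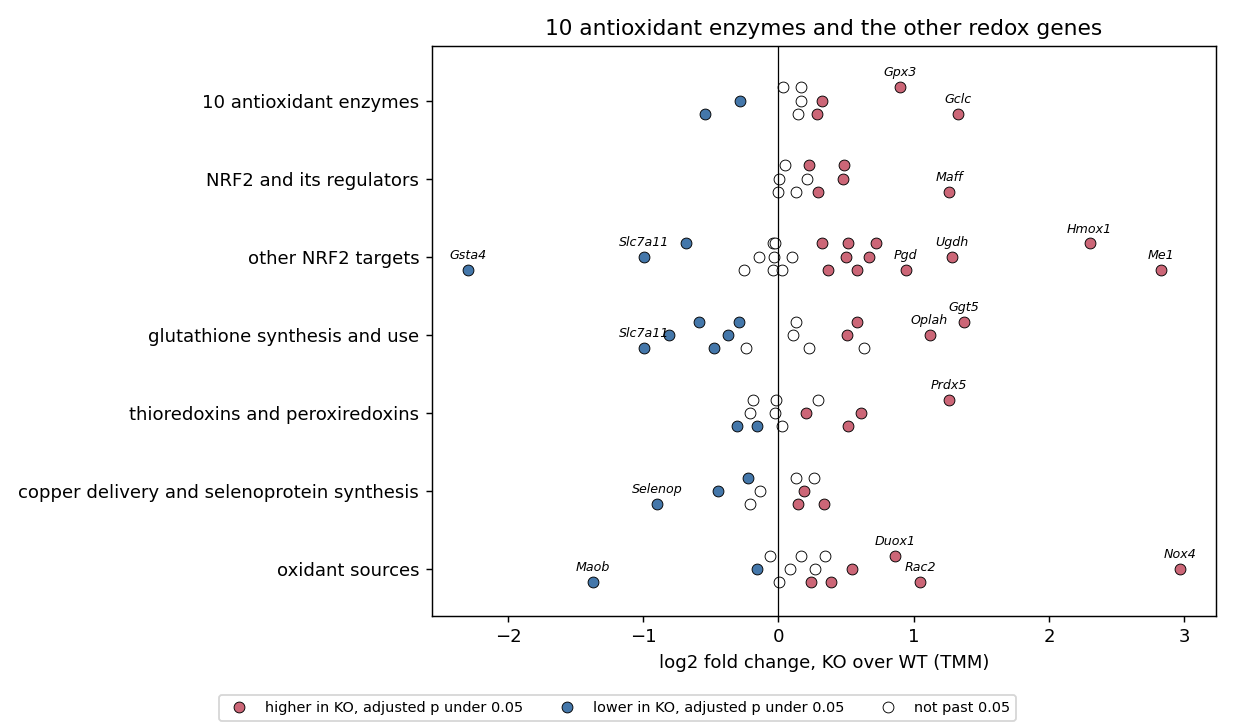
Log2 fold change of knockout over wild type on the TMM scale (horizontal axis) for the tested genes of each list, 1 point a gene and spread vertically only for legibility, filled red where higher and blue where lower at an adjusted p under 0.05 and open otherwise. Me1 (2.83), Nox4 (2.97) and Hmox1 (2.30) lie to the right of Gclc (1.33), and Gsta4 (-2.30) lies farthest left.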

How the data were processed

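Total RNA of tail tendon fascicles was sequenced in 16 libraries, 8 per genotype by their titles. The deposited values are whole-number counts per gene, 1 file a library. Per the submitters' processing notes the tools were kallisto and featureCounts and the build GRCm39. Their roles, the annotation and the use of strand are not given in the sources used here. Symbols came from the supplied name table (25614 of 25719 identifiers). Exon lengths and overlaps came from GENCODE M21 and promoters from RefSeq, both on GRCm38, so no gene positions on the counts' build are given.

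The level of a further marker gene is not reported here. Counts were filtered (filterByExpr), scaled by TMM and tested with edgeR 4.0.16 (quasi-likelihood, robust, two-sided, genotype as the only term) in R 4.3.3, adjusted over 14803 genes. A prior count of 2 was used for log2 CPM, and 3 counts as the floor. The fit was tested on simulated data. Libraries were compared in pairs within each genotype only. The most similar pair had a chi-square of 6.56 per degree of freedom, so no pair looked like the same library counted again. This does not show whether 2 libraries came from 1 mouse. Intervals cover the spread between libraries.

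The enzymes and lists were chosen with earlier results of these data known. From each list, genes past the threshold without overlap were named, up to 3 with the largest rise and 3 with the largest fall, besides Nfe2l2, Keap1, Bach1 and Hmox1. Alternatives were DESeq2 1.42.0 (size factors and Wald test), total counts, 2 other filters, limma 3.58.1 (voom with quality weights), the replicate number as a block, a muscle covariate and each library left out. Leaving out the 4 muscle-rich libraries was chosen after seeing the data.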

Additional observations from a re-analysis of the deposited data

Results flagged for a closer look

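In all, 2 values stood apart from the rest of their group in 26 checks of 8 libraries, where chance gives about 1 in 20, or 1.3. Both are wild type library 3 and both rest on Gpx3. Its log2 CPM of Gpx3 was 6.72, against 5.47 in the next highest wild type library. Its share of Gpx3 in Gpx1 and Gpx3 was 32.7%, against 17.4% in the next. The gap covered 0.599 and 0.667 of the wild type range, above Dixon's critical value for a group of that size. Vhl in this library was within the wild type range of 14.1 to 25.8 CPM. Its TMM factor, 1.07, was above those of the other wild type libraries (0.826 to 0.935) and within the knockout range of 1.06 to 1.17.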

How the results depend on the processing

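For the 10 enzymes, 219 of 250 values under 25 alternatives kept their direction and their side of the threshold; 19 lost the call, 9 gained it and 3 changed sign. Gclc and Cat kept the call throughout. With total counts 8 enzymes passed, 8 higher and 0 lower, as did 8270 genes higher and 1415 lower over all genes (TMM: 3792 and 3359), and Gpx1 changed sign to 0.018. Without a filter 1 enzyme was lower, Gpx1 then having an adjusted p of 0.0554. With the muscle score as a covariate 3 enzymes passed, 2 higher and 1 lower, and Sod2 changed sign to -0.031. Without the 4 muscle-rich libraries 3 passed as well, 2 higher and 1 lower. Over single left-out libraries 5 to 6 enzymes passed, 4 to 5 higher and 1 to 2 lower, and Sod2 ran from -0.028, without knockout library 5, to 0.092. Of 500 values for the other named genes, Vhl included, 489 kept direction and side, 9 lost the call, 2 gained it and none changed sign. The replicate block gave 6 enzymes past the threshold, as without it, and 7010 genes in all. Same-numbered libraries deviated together in 3 of 8 pairs (correlation over 0.1; range -0.397 to 0.394). Of the 8 knockout libraries, 1 correlated best with the wild type library of its own number. Whether the numbers pair the samples was not tested. Within-library differences over left-out libraries ran from 7.89 to 10.7 points for Sod3, 13.5 to 17.4 points for Gpx3 and 1.09 to 1.19 for the log2 ratio of Gclc to Gclm. Depth limits Nqo1 most, at 36 counts in its lowest library.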
